A study of Homo sapiens with 48 samples.

Results

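The MYC and MAX network is a set of transcription factors that compete for 1 partner and 1 DNA element. Its 9 members here are MYC, MAX, MXD1, MXD3, MXD4, MXI1, MNT, MGA and MLX. They were taken by gene symbol from the 58721 genes of the deposited tables, as known proteins of the network and not by a threshold on measured values. All 9 were found in both tables and passed the filters on low values, so each comparison below covers 9 of 9 members.

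Expression was studied in the DLD-1 line, which derives from a human colorectal cancer, in 3 lines that all carried TIR1, the plant auxin receptor. The parental line had no tagged protein, while the CNOT1-AID and CNOT4-AID lines carried an auxin-inducible degron at the genomic CNOT1 or CNOT4 locus, through which auxin depletes that protein. CNOT1 is the scaffold of CCR4-NOT, the complex that removes poly(A) tails from mRNA, and CNOT4 is its ubiquitin ligase subunit. For steady-state RNA each line was left untreated or given 1 mM auxin and collected at 8 h or 24 h, which made 12 groups of 2 libraries. For RNA decay each line received 1 mM auxin for 2 h and then 1 µM triptolide, an inhibitor of transcription initiation, for 0, 3, 6 or 12 h, which made another 12 groups of 2 libraries. Every triptolide group had therefore had auxin, the parental groups included. Whether a tagged line is a single clone is not stated in the sources used here, and neither is whether the 2 libraries of a group came from separate cultures, so p-values measure only the spread between these libraries.

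MYC is an activator that binds the sequence CACGTG, the E-box, only as a dimer with MAX. MXD1, MXD3, MXD4, MXI1 and MNT also dimerise with MAX, occupy the same element and recruit SIN3 and histone deacetylases, so they act as antagonists of MYC. MGA is a large MAX partner in a Polycomb repressor complex. MLX is a second shared partner, which pairs with MNT, MXD1 and MXD4 and with the glucose sensors MLXIP (MondoA) and MLXIPL (ChREBP). MYC mRNA is known as a short-lived message in many cell types, and MYC is a classical target of WNT signalling in colorectal cancer.

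MXD4, MNT and MLX carry the network's own element just upstream of a start site. They are shown because their RNAs rose after auxin in CNOT1-AID cells. Their courses in time differed, and RNAs of members that have no such element rose as well. The sequences are the 250 bases before the RefSeq start on GRCh38.p14, written 5′ to 3′ on the gene's strand, and capitals mark CACGTG. The MXD4 window is chr4:2262110-2262359 (minus), the MNT window chr17:2401061-2401310 (minus) and the MLX window chr17:42566850-42567099 (plus).
MXD4: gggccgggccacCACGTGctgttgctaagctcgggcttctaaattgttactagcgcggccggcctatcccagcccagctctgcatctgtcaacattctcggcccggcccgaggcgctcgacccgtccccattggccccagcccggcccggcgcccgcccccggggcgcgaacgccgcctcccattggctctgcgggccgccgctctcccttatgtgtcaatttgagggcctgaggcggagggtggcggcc
MNT: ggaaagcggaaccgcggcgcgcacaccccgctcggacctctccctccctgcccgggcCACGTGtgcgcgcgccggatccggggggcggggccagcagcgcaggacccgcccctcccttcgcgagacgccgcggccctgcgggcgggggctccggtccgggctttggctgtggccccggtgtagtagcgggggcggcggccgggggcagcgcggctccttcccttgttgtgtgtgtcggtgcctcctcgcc
MLX: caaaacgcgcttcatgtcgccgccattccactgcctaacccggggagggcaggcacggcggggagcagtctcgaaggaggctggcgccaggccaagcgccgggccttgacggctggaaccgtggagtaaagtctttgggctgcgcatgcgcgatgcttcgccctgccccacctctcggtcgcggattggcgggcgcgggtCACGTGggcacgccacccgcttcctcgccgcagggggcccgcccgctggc
The element starts 238 bases before the start in MXD4, 193 bases in MNT and 50 bases in MLX. CACGTG, which reads the same on both strands, occurred in 7.26% of 35116 RefSeq promoter windows of 300 bases. The windows of MXD1, MXD3, MXI1, MAX and MGA held no CACGTG. A match is a description of the letters and not evidence of binding.

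The 3′ UTRs of 3 members hold TGTANATA, the sequence that Pumilio proteins bind. Pumilio proteins are known to bring CCR4-NOT to mRNA, which is why these sites are shown. Each is a stretch of 30 bases on the sense strand of the principal GENCODE 29 transcript, with the 8 matching bases in capitals.
MXD1 site 1: gcacatgtataTGTACATAagacacattaa
MXD1 site 2: atgtttctttaTGTAAATAtgacgccaatg
MNT: aaccctaatttTGTACATActgtattttta
MGA site 1: cctatctagttTGTAAATAatcatggtgca
MGA site 2: ttttatacatcTGTAAATAaatggaatgtt
The MXD1 sites are at chr2:69939476-69939505 and chr2:69942757-69942786, the MNT site at chr17:2384203-2384232, and the MGA sites at chr15:41768482-41768511 and chr15:41769736-41769765. Among 12286 transcripts with a 3′ UTR of at least 500 bases, 9.42% had TGTANATA in the first 500, and 0 of the 7 members assessed did (MXD3 has a shorter 3′ UTR). The AU-rich pentamer ATTTA, searched on the sense strand, occurred 10 times in the MXD1 3′ UTR of 4661 bases, 4 times in MGA, 3 times in MXI1, 2 times each in MAX and MLX, and 0 times in MXD3, MXD4 and MNT. Those counts, and the count of 3 members with TGTANATA, are over whole 3′ UTRs of unlike length and have no background beside them. In the first 500 bases ATTTA was present in MAX, MXD1, MXI1, MGA and MLX and absent in MXD4 and MNT, beside 53.1% of the same transcripts. For MYC no result on these motifs or on CACGTG is reported here.

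On GRCh38, with GENCODE 29 annotation, MYC lies on chr8:127735434-127741434 (plus strand) and overlaps no other annotated gene. MAX lies on chr14:65006174-65102695 (minus), MXD1 on chr2:69897688-69942945 (plus), MXD3 on chr5:177301461-177312757 (minus) and MXD4 on chr4:2247432-2262294 (minus). MXI1 lies on chr10:110207605-110287365 (plus), MNT on chr17:2384060-2401118 (minus), MGA on chr15:41621224-41773081 (plus) and MLX on chr17:42567068-42573239 (plus). MXD1 overlaps SNRNP27 and MXD3 overlaps RAB24 on the same strand, while MAX overlaps FNTB and MLX overlaps PSMC3IP on the opposite strand. How reads in such overlaps were assigned is not given in the sources used here, so the values of MXD1, MXD3, MAX and MLX may hold reads of these neighbours.

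Steady-state values were deposited as TPM, a level corrected for gene length and library size, and their depth is unknown. Protein-coding genes took 30.6% to 54.7% of the TPM of a library and small nuclear RNA 15.9% to 34.1%, with replicate 1 of CNOT4-AID with auxin at 8 h at the low end for protein-coding genes and the high end for small nuclear RNA. Triptolide libraries held 18216427 to 26723618 counts, of which ERCC spike-in RNA made up 0.941% to 3.92%. The 2 parental libraries at 0 h of triptolide agreed less than any other pair of that set (Pearson r = 0.966 over genes, against 0.981 to 0.990). Of 15 colon epithelium markers 12 had a mean of at least 1 TPM, KRT8 being highest, against 1 of 7 blood markers (CD14), 0 of 8 fibroblast markers and 0 of 4 endothelial markers. CNOT1 RNA in CNOT1-AID cells was 49.0 to 68.4 TPM untreated and 39.9 to 48.3 TPM with auxin, and CNOT4 RNA in CNOT4-AID cells was 9.02 to 10.2 and 8.66 to 12.6 TPM. Untreated parental cells held 83.8 to 95.2 TPM of CNOT1 and 8.08 to 9.87 TPM of CNOT4. The untreated CNOT1-AID line thus had less CNOT1 RNA than the parental line before any auxin. The degron acts on protein, so these RNA levels do not check the depletion.

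The first question was how the network's RNAs responded to auxin in CNOT1-AID cells. At 8 h 8 of 9 members were higher with auxin and 0 lower, and at 24 h 7 were higher and 1 lower. These shares stand beside 33.1% of 14921 genes called higher and 29.8% called lower at 8 h, and 36.7% and 34.8% at 24 h. The median member changed by 0.75 on the log2 scale at 8 h and 0.92 at 24 h, while the median gene changed by 0.00 and -0.01. Calls are at an adjusted p below 0.05 (limma on log2 of scaled TPM plus 0.5, with Benjamini-Hochberg adjustment over all genes). On that scale the change of a gene at a few TPM is understated. TPM of single libraries are printed unscaled, while changes are fitted after TMM scaling, so the printed levels and the fitted change can differ in size and sign. ERCC scaling gave the same 8 calls at 8 h and 9 at 24 h, but moved the median gene to 0.41 and 0.31 and the share of calls that were higher from 52.6% to 84.1% and from 51.3% to 70.8%, and at 8 h it gave 0.94 for MAX, 1.18 for MXD1, 0.96 for MGA and 1.10 for MLX, whose values are printed below as fitted with TMM scaling. With unscaled TPM the median gene was at 0.26 and 0.21, and the share of calls that were higher was 74.6% and 64.7%.

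MYC had the largest change of the 9 at 8 h. Untreated CNOT1-AID libraries held 62.6 and 70.9 TPM of MYC at 8 h and 61.9 and 60.9 TPM at 24 h. With auxin they held 367 and 384 TPM at 8 h and 214 and 213 TPM at 24 h. All 4 auxin libraries lay far above the other 20 libraries of the set, which ran from 51.0 to 84.7 TPM with a median of 68.8. The fitted change was 2.19 ± 0.05 (log2, SE), 4.56-fold, at 8 h (adjusted p = 9.52e-15), and 1.53 ± 0.05, 2.88-fold, at 24 h (adjusted p = 1.57e-13). The response was thus smaller at 24 h than at 8 h, by 0.66 ± 0.07 in size (difference -0.66, adjusted p = 5.48e-06). In bulk RNA, a change in some of the cells and a change in all of them cannot be told apart.

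**Figure D1:**
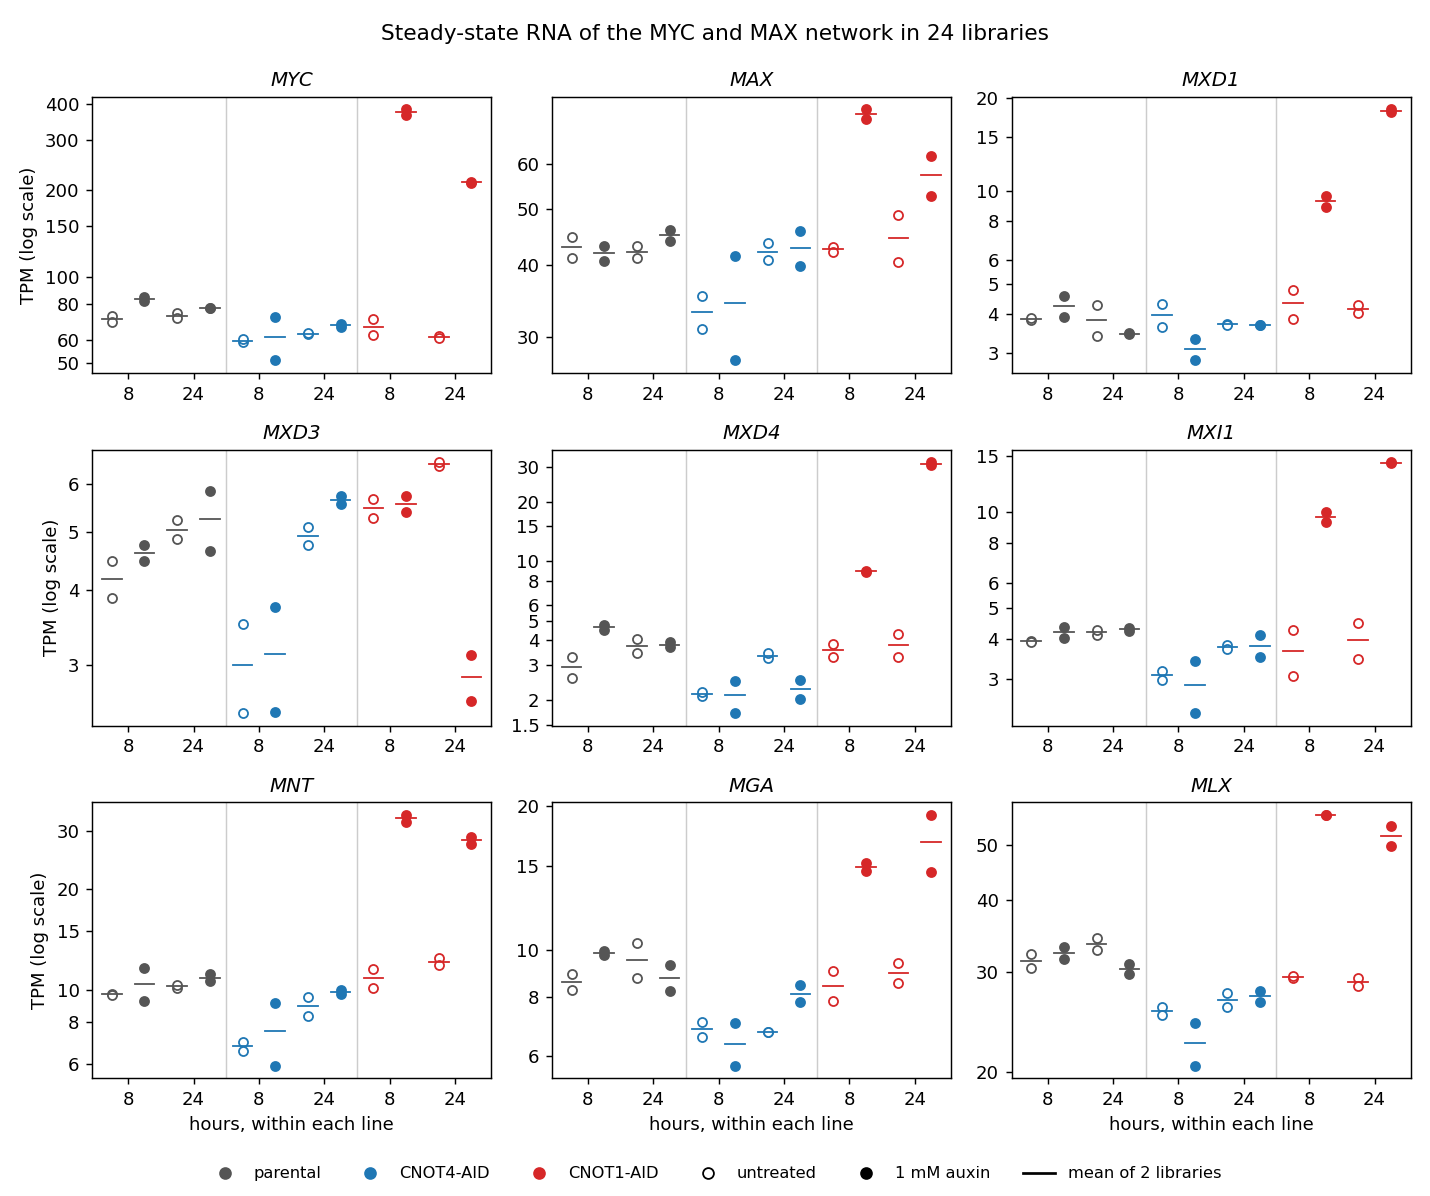
Steady-state TPM of the 9 network genes in 24 libraries, 1 panel a gene, on log axes with a range of their own. Points are libraries, open for untreated and filled for 1 mM auxin, and bars are means of 2. In CNOT1-AID cells with auxin MYC stands at 367 and 384 TPM at 8 h and 214 and 213 TPM at 24 h, and MXD3 at 24 h is the one gene below its untreated libraries.

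The 5 antagonists did not follow 1 course. MXD4, MXD1 and MXI1 were higher at 8 h and higher still at 24 h, MNT was higher at both times with the larger value at 8 h, and MXD3 was lower at 24 h. MXD4 stood at 3.31 and 3.85 TPM in untreated and 8.82 and 8.96 TPM in auxin libraries at 8 h, and at 4.32 and 3.29 against 30.4 and 31.6 TPM at 24 h. Its change was 0.93 ± 0.12 at 8 h (adjusted p = 3.82e-06) and 2.62 ± 0.12, 6.14-fold, at 24 h (adjusted p = 5.72e-12), the largest of the 9 at that time. The difference between the times was 1.69 ± 0.17 (adjusted p = 2.08e-06).

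MXD1, the MAD1 protein that replaces MYC on MAX as many cells stop dividing, stood at 3.86 and 4.79 TPM untreated and 8.90 and 9.66 TPM with auxin at 8 h. At 24 h its values were 4.02 and 4.29 against 18.4 and 18.0 TPM. The groups did not overlap at either time, and the change went from 0.75 ± 0.10 (adjusted p = 5.55e-06) to 1.75 ± 0.10 (adjusted p = 8.84e-11), a difference of 1.00 ± 0.14 (adjusted p = 5.34e-05). MXI1 went from 3.07 and 4.28 to 9.35 and 9.99 TPM at 8 h and from 4.50 and 3.45 to 14.3 and 14.4 TPM at 24 h. Its changes were 1.02 ± 0.11 and 1.48 ± 0.11 (adjusted p = 4.92e-07 and 2.79e-09), and their difference, 0.46 ± 0.16, passed the test (adjusted p = 0.0305) but was lost under 9 alternatives, 5 other settings and 4 single libraries left out, where adjusted p was 0.0510 to 0.239.

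MNT, the most widely expressed of the antagonists, was also the most abundant of them in untreated cells. Its libraries held 10.1 and 11.5 TPM untreated and 31.9 and 33.4 TPM with auxin at 8 h, and 12.5 and 11.8 against 28.8 and 27.4 TPM at 24 h. The change was 1.26 ± 0.10 at 8 h (adjusted p = 1.18e-08) and 0.92 ± 0.10 at 24 h (adjusted p = 3.53e-07), and the decline of 0.34 ± 0.14 between the times was not called (difference -0.34, adjusted p = 0.0699). MXD3, an antagonist linked to cycling cells, ran the other way. It stood at 5.68 and 5.27 TPM untreated and 5.39 and 5.74 TPM with auxin at 8 h, groups that overlapped, and at 6.44 and 6.53 against 3.12 and 2.62 TPM at 24 h, where both auxin libraries were below both untreated ones. Its change was -0.25 ± 0.14 at 8 h (adjusted p = 0.137) and -1.27 ± 0.14 at 24 h (adjusted p = 4.22e-07). The low MXD3 values at 24 h fell within the range of the other 20 libraries, whose highest held 6.53 TPM.

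MAX, the obligate partner of MYC and a partner of every antagonist, was called at 8 h and not at 24 h. It held 43.1 and 42.3 TPM untreated and 74.5 and 71.8 TPM with auxin at 8 h, and 48.8 and 40.6 against 61.9 and 52.6 TPM at 24 h. The change was 0.48 ± 0.10 at 8 h (adjusted p = 0.000549) and 0.10 ± 0.10 at 24 h (adjusted p = 0.402). The 24 h value depended on the scaling between libraries: it was 0.36 with TPM left unscaled (adjusted p = 0.0334) and 0.47 with ERCC scaling (adjusted p = 0.00229), and -0.01 with protein-coding TPM rescaled first.

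MLX and MGA rose at both times by similar amounts. MLX held 29.2 and 29.4 TPM untreated and 56.4 and 56.4 TPM with auxin at 8 h, and 29.2 and 28.3 against 54.0 and 49.8 TPM at 24 h, changes of 0.64 ± 0.06 and 0.58 ± 0.06 (adjusted p = 7.97e-08 and 1.56e-07). MGA held 7.82 and 9.03 against 14.7 and 15.2 TPM at 8 h and 8.55 and 9.40 against 19.2 and 14.5 TPM at 24 h, changes of 0.51 ± 0.09 and 0.61 ± 0.09 (adjusted p = 0.000175 and 2.1e-05). In neither gene did a difference between the times pass the test (differences -0.06 ± 0.08 and 0.10 ± 0.13, adjusted p = 0.623 and 0.601). In unscaled TPM, each member except MXD3 lay above all 20 other libraries at 8 h and at 24 h of auxin in CNOT1-AID cells. For MAX at 24 h the change fitted after TMM scaling was nonetheless not called.

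Between 8 h and 24 h the responses of 6 of 9 members differed, 3 upward (MXD1, MXI1, MXD4) and 3 downward (MYC, MXD3, MAX), against 36.3% of all genes (17.4% upward and 18.9% downward). MYC, MXD1, MXD3 and MXD4 made this list under every setting tried. MAX (difference -0.38 ± 0.14, adjusted p = 0.0461) and MXI1 dropped out with unscaled TPM, with ERCC scaling and with no filter on low values. The count fell to 4 without any 1 of CNOT1-AID auxin 24 h replicate 2, CNOT1-AID untreated 8 h replicate 2 and CNOT1-AID auxin 8 h replicate 1.

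**Figure D2:**
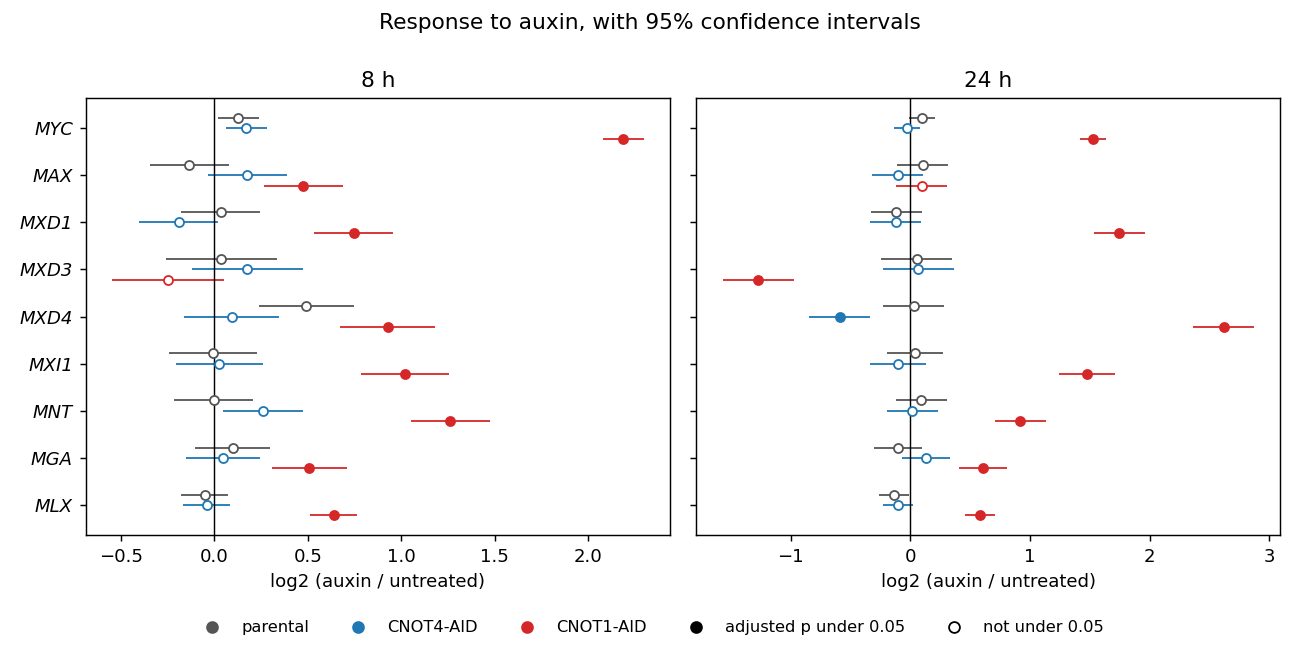
Fitted log2 change with auxin in the 3 lines at 8 h (left) and 24 h (right), with 95% confidence intervals from the limma fit. Filled points had an adjusted p below 0.05. In CNOT1-AID cells MYC falls from 2.19 to 1.53 between the panels while MXD4 goes from 0.93 to 2.62, and the parental and CNOT4-AID points lie near 0 apart from MXD4.

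Because MYC and its antagonists share MAX, their RNA levels were also set against each other within each library. TPM allows this because it is a level per length, and the ratio does not depend on scaling between libraries. In the 20 libraries other than CNOT1-AID with auxin, MYC was 1.95 to 3.33 times the summed TPM of MXD1, MXD3, MXD4, MXI1 and MNT, with a median of 2.75. At 8 h of auxin in CNOT1-AID cells the ratio was 5.71 and 5.66, above every other library, and at 24 h it was 2.26 and 2.27, within the range of the others but above the untreated CNOT1-AID libraries of that time (1.95 and 2.07), which set its low end. Over the same course MYC per MAX was 4.93 and 5.34 at 8 h and 3.46 and 4.04 at 24 h, against 1.27 to 2.08 elsewhere, so it stayed above the other libraries at both times.

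The summed antagonist RNA went from 26.0 and 29.7 TPM untreated to 64.4 and 67.8 TPM with auxin at 8 h, and from 31.7 and 29.4 to 94.9 and 94.0 TPM at 24 h. The antagonist sum per MAX was 0.533 to 0.724 in the other 20 libraries, 0.864 and 0.944 at 8 h and 1.53 and 1.78 at 24 h. Its makeup shifted as well. MNT supplied 49.4% of the mean sum at 8 h of auxin and 29.7% at 24 h, while MXD4 supplied 13.5% and 32.8% and MXD3 8.4% and 3.0%. In untreated CNOT1-AID cells at 24 h the shares were 39.7% for MNT, 12.5% for MXD4 and 21.2% for MXD3. These are ratios of RNA, with 2 libraries a group and no test, and protein was not measured.

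**Figure D3:**
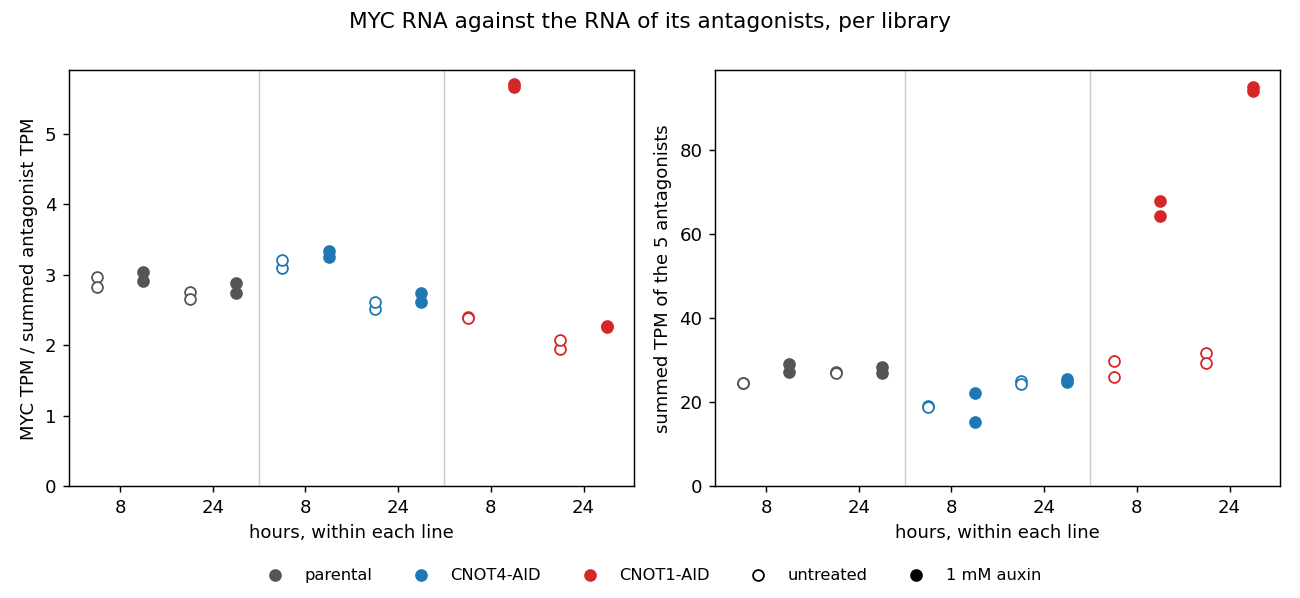
Left, MYC TPM divided by the summed TPM of MXD1, MXD3, MXD4, MXI1 and MNT in each of 24 libraries; right, that sum. Open points are untreated and filled points auxin libraries. The CNOT1-AID auxin libraries stand at 5.71 and 5.66 (left) at 8 h and at 2.26 and 2.27 at 24 h, while their antagonist sums go from 64.4 and 67.8 to 94.9 and 94.0 TPM.

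No member passed the test with auxin in the parental line, which has no tagged protein. There 0 of 9 members passed at 8 h (0.0201% of genes did) and 0 at 24 h (0% did, with limma), and 2 and 1 members had an unadjusted p below 0.05. MYC held 73.1 and 69.3 TPM untreated and 82.2 and 84.7 TPM with auxin at 8 h, a change of 0.13 (adjusted p = 0.865). The largest parental value was MXD4 at 8 h, 0.49 ± 0.12 (adjusted p = 0.564), from 3.31 and 2.59 to 4.79 and 4.50 TPM. Set against this parental response, the CNOT1-AID response was larger for 8 members at 8 h (27% of genes were higher in this difference and 23.2% lower). At 24 h it was larger for 7 and smaller for MXD3 (32.3% of genes were higher and 29.6% lower). The difference was 2.06 ± 0.07 for MYC at 8 h (adjusted p = 5e-12) and 1.43 ± 0.07 at 24 h (adjusted p = 7.35e-11), and 2.59 ± 0.17 for MXD4 at 24 h (adjusted p = 1.33e-09). For MXD4 at 8 h it was 0.44 ± 0.17 (adjusted p = 0.0419), and that call was lost with a pseudocount of 0.1, with no filter on low values and when any 1 of 7 of the 8 libraries was left out.

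Auxin in CNOT4-AID cells changed 0 of 9 members at 8 h (0.288% of genes were called) and 1 at 24 h (4.51% of genes). At 8 h 2 members had an unadjusted p below 0.05. MYC held 59.0 and 60.6 TPM untreated against 51.0 and 72.1 TPM with auxin at 8 h, a change of 0.17 ± 0.05 (adjusted p = 0.213) that became 0.27 and was called without auxin replicate 1 (adjusted p = 0.0183), and 63.0 and 63.5 against 68.4 and 66.8 TPM at 24 h. Those TPM are unscaled and were higher with auxin at 24 h. After TMM scaling the MYC change at 24 h was -0.03, with a 95% interval from -0.14 to 0.08. MXD4 was the member called at 24 h: it stood at 3.24 and 3.44 TPM untreated and 2.51 and 2.02 TPM with auxin, a change of -0.59 ± 0.12 (adjusted p = 0.0157). That call was lost with unscaled TPM (adjusted p = 0.127), with ERCC scaling (0.107) and without CNOT4-AID untreated 24 h replicate 1 (0.104), untreated 24 h replicate 2 (0.0509) or auxin 24 h replicate 2 (0.140).

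Against the parental response, the CNOT4-AID response differed for 0 of 9 members at 8 h (0.0134% of genes) and 0 at 24 h (0.067% of genes), with 2 and 1 members at an unadjusted p below 0.05. For MXD4 at 24 h the difference was -0.62, with a 95% interval from -0.98 to -0.26 and an adjusted p of 0.132. Set directly against CNOT4-AID at 24 h, the CNOT1-AID response differed for 8 of 9 members, all but MAX, against 62.2% of genes. MXD4, which was lower with auxin in CNOT4-AID cells and higher in CNOT1-AID cells, had the largest of these differences, 3.21 ± 0.17 (adjusted p = 1.04e-10). Within CNOT4-AID cells 0 of 9 responses differed between 8 h and 24 h (0.0201% of genes), and 2 had an unadjusted p below 0.05.

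The tagged lines were also compared with the parental line before any auxin. In untreated CNOT1-AID cells MXD3 (0.37 ± 0.10) and MNT (0.22 ± 0.07) were higher and MYC (-0.14 ± 0.04) and MLX (-0.12 ± 0.04) lower, 4 of 9 members beside 20.7% of genes. In untreated CNOT4-AID cells MXD1 was higher (0.24 ± 0.07, adjusted p = 0.0246), 1 of 9 members beside 20.2% of genes. In the CNOT1-AID comparison the count was 0 with unscaled TPM or ERCC scaling and 1 to 3 with any 1 library left out, and in the CNOT4-AID comparison it was 5 with unscaled TPM, all 5 lower (MYC, MXD4, MNT, MGA and MLX) and MXD1 no longer called, 0 with ERCC scaling and 0 or 1 with 1 library left out.

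The second question was how fast these RNAs were lost once transcription was blocked. MYC RNA nearly vanished within 3 h of triptolide in parental and CNOT4-AID cells and stayed at most of its starting level through 12 h in CNOT1-AID cells. Values here are counts scaled to ERCC spike-in RNA, and the lines are compared after 2 h of auxin. In parental cells MYC held 6717 and 3925 scaled counts at 0 h, 170 and 187 at 3 h, 80.2 and 149 at 6 h and 47.5 and 44.0 at 12 h. In CNOT1-AID cells it held 11892 and 13291 at 0 h, 9814 and 13651 at 3 h, 8728 and 10497 at 6 h and 10686 and 8418 at 12 h. In CNOT4-AID cells it held 6626 and 8763 at 0 h, 220 and 240 at 3 h, 115 and 106 at 6 h and 66.4 and 34.4 at 12 h.

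By 12 h the mean of MYC was 0.860% of its 0 h mean in parental, 0.655% in CNOT4-AID and 75.9% in CNOT1-AID cells. The median gene with at least 100 scaled counts at 0 h was left at 56.9%, 29.2% and 87.9% in the same order. Only 0.245% of 11002 such genes were left at a lower share than MYC in parental cells, 0.425% of 11287 in CNOT4-AID cells and 25.1% of 11326 in CNOT1-AID cells. MYC was thus among the fastest RNAs to go in the first pair of lines and in the lower part of a flat distribution in CNOT1-AID cells.

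From 0 h to 3 h the change of MYC was -4.90 ± 0.35 (log2, SE) in parental cells (edgeR quasi-likelihood test, adjusted p = 1.84e-40), -5.06 ± 0.35 in CNOT4-AID cells (adjusted p = 3.43e-43) and -0.10 ± 0.29 in CNOT1-AID cells (adjusted p = 0.976). The CNOT1-AID change differed from the parental one by 4.80 ± 0.44 (adjusted p = 2.85e-23), and over all alternatives by 4.36 to 5.13. The CNOT4-AID change did not pass against the parental one (-0.16 ± 0.43, adjusted p = 0.83). If loss was exponential over these 3 h, the parental and CNOT4-AID values correspond to half-lives of 0.613 h and 0.593 h. Loss was not exponential over the whole course: the straight line through all 4 times had a slope of -0.57 ± 0.11 log2 units per hour in parental cells, a half-life of 1.76 h.

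**Figure D4:**
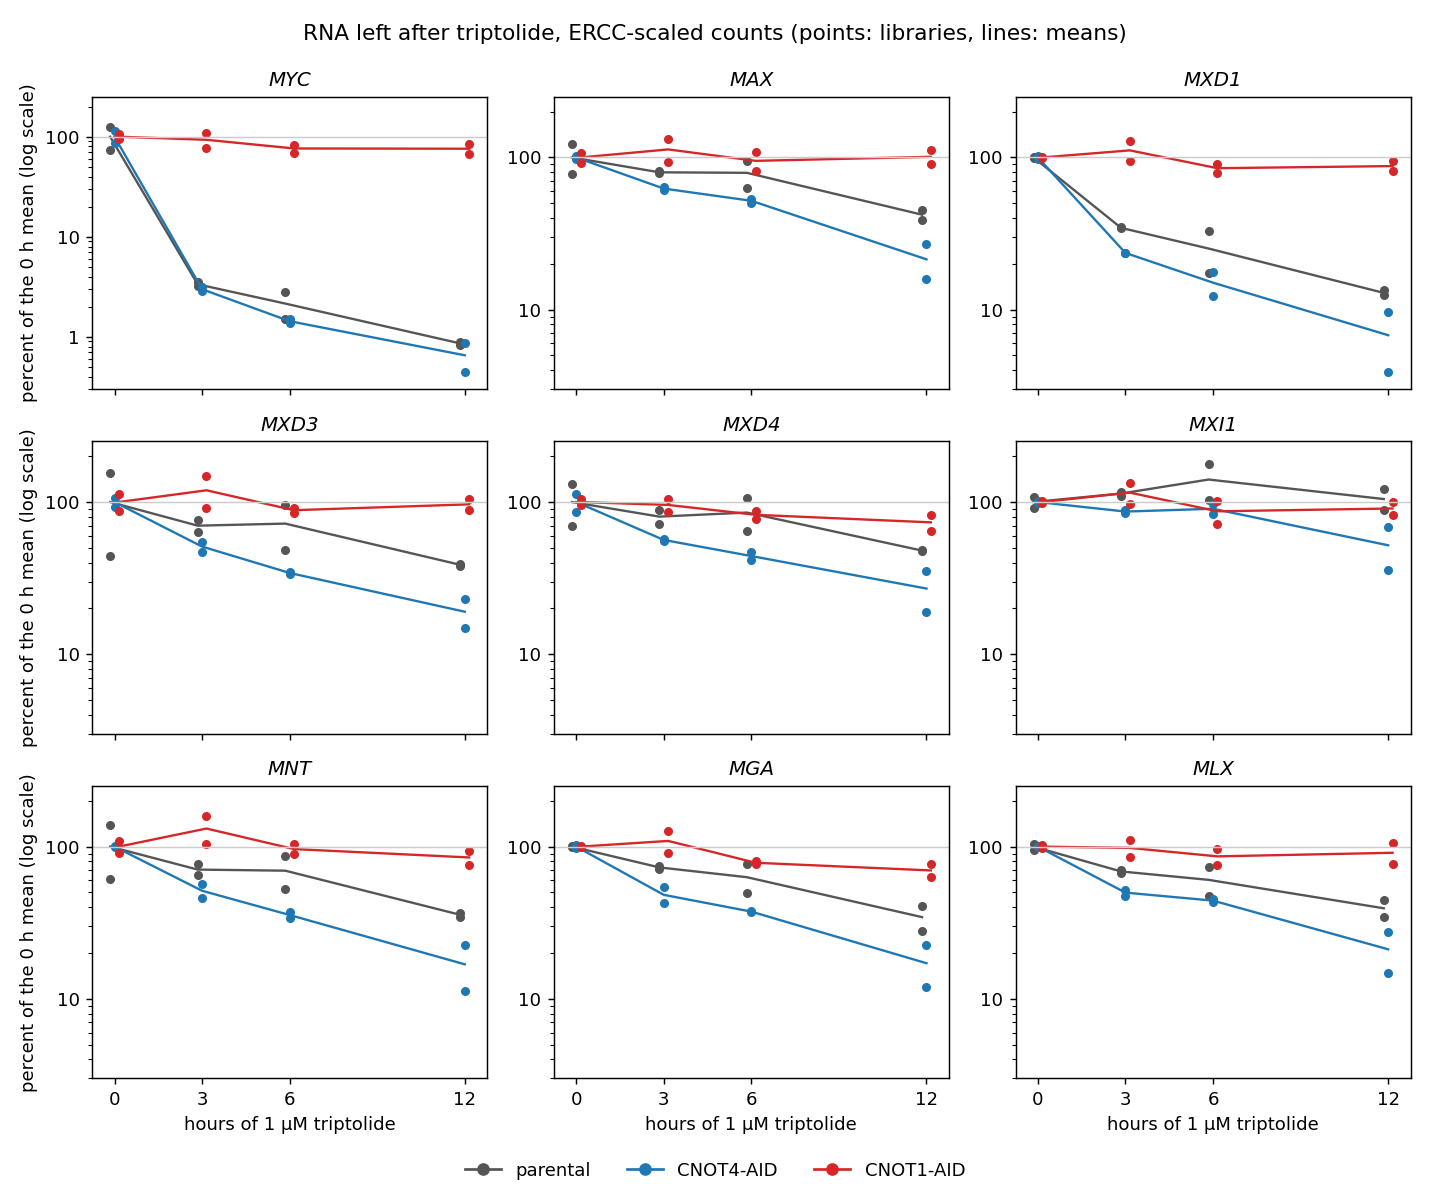
RNA left after 1 µM triptolide as a percent of the 0 h mean, on log axes, for the 9 network genes. Points are libraries, shifted slightly sideways by line, and lines join means of 2, in ERCC-scaled counts; the MYC panel has a longer axis. At 12 h MYC is left at 0.860% in parental, 0.655% in CNOT4-AID and 75.9% in CNOT1-AID cells.

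MXD1 was the other member called lower at 3 h in parental cells. In parental cells it held 502 and 501 scaled counts at 0 h, 172 and 174 at 3 h and 62.2 and 67.0 at 12 h. In CNOT1-AID cells it held 1440 and 1453 at 0 h, 1364 and 1857 at 3 h and 1368 and 1171 at 12 h, all above every parental library. In CNOT4-AID cells it went from 717 and 754 to 173 and 174 at 3 h and 71.3 and 28.7 at 12 h. The 3 h change was -1.54 ± 0.32 in parental, -2.08 ± 0.32 in CNOT4-AID and 0.15 ± 0.30 in CNOT1-AID cells (adjusted p = 2.81e-05, 2.13e-09 and 0.976). CNOT1-AID differed from parental by 1.69 ± 0.44 (adjusted p = 0.00506). Leaving out parental 3 h replicate 1 (adjusted p = 0.0549), parental 3 h replicate 2 (0.0560), CNOT1-AID 0 h replicate 1 (0.0596) or CNOT1-AID 3 h replicate 2 (0.0998) ended that call.

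MYC and MXD1 were the 2 of 9 members whose 3 h change differed between CNOT1-AID and parental cells, a difference called higher in 3.25% of 16806 genes. They were also the 2 called in parental cells at 3 h, where 13.1% of genes were called lower, and 0 of 9 were called in CNOT1-AID cells (5.37% of genes in either direction, 0 members at an unadjusted p below 0.05). In the same CNOT1-AID libraries TXNIP, another short-lived RNA, held 1007 and 962 scaled counts at 0 h and 402 and 530 at 3 h, a fall of 1.08 ± 0.31 (change -1.08, adjusted p = 0.0147). In parental cells TXNIP changed by -2.34 (edgeR, adjusted p = 2.44e-10). ARRDC4 and MYCL were also called lower at 3 h in parental cells (-1.16 and -1.01, edgeR, adjusted p = 0.00365 and 0.04995). In CNOT1-AID cells they changed by -0.04 and 0.20 and were not called (adjusted p = 0.989 and 0.976). The CNOT1-AID change differed from the parental one by 1.26 for TXNIP, 1.12 for ARRDC4 and 1.21 for MYCL. None of these differences was called (edgeR, adjusted p = 0.121, 0.217 and 0.298).

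Over all 4 times the slopes of 4 members were less steep in CNOT1-AID than in parental cells and 0 were steeper, beside 18.8% and 0.94% of genes. The slope difference in log2 units per hour was 0.53 ± 0.13 for MYC (adjusted p = 0.0058), 0.21 ± 0.05 for MXD1 (adjusted p = 0.00196), 0.10 ± 0.03 for MAX (adjusted p = 0.0264) and 0.095 ± 0.03 for MLX (adjusted p = 0.0237). For the median gene it was 0.03. With TMM scaling the MAX and MLX differences were 0.06 and 0.05 and MXI1 was called steeper, and with library totals MNT (0.07) and MGA (0.07) were also called less steep. In CNOT1-AID cells the slopes of the 9 members ran from -0.05 to 0.00, and each corresponds to a half-life beyond the 12 h sampled. MYC and MXD1 kept this call with any 1 library left out, while the count fell to 2 without parental 0 h replicate 1, parental 12 h replicate 2 or CNOT1-AID 12 h replicate 1. The MYC difference was 0.19 without the 0 h libraries and 0.89 without those at 12 h (adjusted p = 0.00241 and 0.0223), and for MXD1 the first of these was 0.13 (adjusted p = 0.0663).

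For the other members the parental slopes were flatter, with no test between members. Half-lives from the parental slopes were 8.46 h for MNT (95% interval 5.82 to 15.5 h), 7.97 h for MGA (5.78 to 12.8 h), 9.39 h for MXD3, 12.0 h for MXD4, 9.33 h for MLX and 9.94 h for MAX. MXD1 had 4.24 h (3.22 to 6.21 h). The intervals of MNT, MGA, MXD3, MXD4, MLX and MAX overlapped, and the order among them was not tested. That of MXD1 overlapped those of MNT, MGA and MXD3, and its order against these was not tested either. It lay below the intervals of MLX (6.53 to 16.3 h), MAX (6.74 to 18.9 h) and MXD4 (7.39 to 32.0 h). No loss of MXI1 passed the test within 12 h: it held 232 and 276 scaled counts at 0 h and 307 and 224 at 12 h in parental cells, a slope of 0.00 ± 0.03 (adjusted p = 0.9), and its slope in CNOT1-AID cells did not pass against this (-0.03 ± 0.04, adjusted p = 0.828). With TMM scaling the MXI1 slope was called steeper in CNOT1-AID than in parental cells (-0.06, adjusted p = 0.00339). MXD4, with the largest rise at 24 h, had a slope difference of 0.04 ± 0.04 (adjusted p = 0.525).

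In CNOT4-AID cells 7 of 9 members fell within 3 h (all but MXI1 and MAX), where 30.2% of genes did, and the median gene changed by -0.52. The members' slopes ran from -0.59 to -0.08 with a median of -0.19, against -0.15 for the median gene, and each slope was below 0 in the edgeR fit. Compared with parental cells 0 of 9 slopes differed (0.845% of genes were called). 6 members had an unadjusted p below 0.05, DESeq2 called 2 (MAX and MGA), and 8 were called without CNOT4-AID 12 h replicate 1. The members' median difference was -0.08 and that of all genes -0.08. At 3 h 0 of 9 differed from parental (0.0417% of genes, 0 members at an unadjusted p below 0.05). Of the genes called at 3 h 4.66% were higher in CNOT4-AID and 12.0% in parental cells, against 38.3% and 40.8% with TMM scaling, which put the median gene at 0.00 and 0.03, and 17.0% and 19.4% with library totals. The count at 3 h within CNOT4-AID cells was 4 with TMM scaling, where MGA changed by -0.53 against -1.05 with ERCC scaling, 2 without CNOT4-AID 3 h replicate 1 and 4 without CNOT4-AID 3 h replicate 2.

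After 2 h of auxin, before triptolide, MYC and MXD1 were already higher in CNOT1-AID than in parental cells. With TMM scaling the differences were 0.94 ± 0.14 for MYC (adjusted p = 0.000174) and 1.20 ± 0.15 for MXD1 (adjusted p = 1.67e-05), 2 of 9 members where 9.66% of genes were higher. In CNOT4-AID cells MXI1 (0.83 ± 0.13, adjusted p = 0.000301), MAX (0.43 ± 0.11, adjusted p = 0.0126) and MGA (0.33 ± 0.10, adjusted p = 0.0416) were higher, 3 of 9 where 7.88% of genes were. Libraries of these lines without auxin at that time were not analysed here, so the line and the auxin cannot be told apart. These counts rest on the 2 parental 0 h libraries: without replicate 1 they were 6 and 5 higher, and without replicate 2 they were 4 and 4 higher, with MXD3 (-0.74) and MNT (-0.51) then lower in CNOT4-AID cells, while MYC and MXD1 kept their calls in the first comparison under all alternatives. In the second the MAX difference was 0.23 without parental replicate 2, and that of MGA was 0.17, and no longer called, without parental replicate 1 (adjusted p = 0.222).

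Targets and partners of the network were read from 9 lists, whose counts with auxin in CNOT1-AID cells stand beside 33.1% of all genes higher and 29.8% lower at 8 h and 36.7% and 34.8% at 24 h. Of 41 textbook MYC-activated genes, most of them for ribosome making and cell cycle entry, 40 were tested at steady state. In CNOT1-AID cells with auxin 27 were higher and 7 lower at 8 h (median 0.41), and 28 and 6 at 24 h (median 0.62). PPAN and NOP2, both for ribosome assembly, rose 2.90- and 2.70-fold at 8 h and 4.30- and 4.13-fold at 24 h. CDC25A, a phosphatase of the cell cycle, rose 2.76-fold at 8 h. The genes known as repressed by MYC did not go the other way. Of 6 tested, 6 were higher at 8 h and 5 at 24 h, with 0 lower at both (medians 0.51 and 1.55), among them CDKN1B, a cell cycle inhibitor, at 6.01- and 7.63-fold. After triptolide 12 of the 41 activated genes had a less steep slope in CNOT1-AID than in parental cells and 0 a steeper one (18.8% and 0.94% of all genes), with a list median of 0.03 equal to that of all genes to 2 decimals.

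Of the genes in the MLX branch, TXNIP and ARRDC4 are the arrestins that MLX and MondoA switch on in response to glucose. TXNIP held 4.40 and 3.82 TPM untreated and 48.2 and 47.2 TPM with auxin at 8 h, and 6.00 and 6.19 against 135 and 124 TPM at 24 h, 8.56- and 16.4-fold in the fit (adjusted p = 3.22e-13 and 5.71e-15). ARRDC4 went from 2.35 and 2.25 to 21.8 and 19.2 TPM at 24 h. The MondoA gene MLXIP rose by 0.31 ± 0.09 and 0.65 ± 0.09 (adjusted p = 0.00949 and 9.17e-06), MLXIPL by 0.56 ± 0.22 and 0.95 ± 0.22 (adjusted p = 0.0364 and 0.000948), and MYCL, a MYC paralogue, by 0.67 ± 0.12 and 1.47 ± 0.12 (adjusted p = 0.000133 and 9.94e-09). Set against the parental response, the 8 h rises of MLXIP and MLXIPL were 0.30 and 0.53 and not called (limma, adjusted p = 0.0716 and 0.167). At 24 h these differences were 0.71 and 0.88 and called (adjusted p = 0.000208 and 0.0214). MLXIPL was near the floor, at 0.18 and 0.41 TPM untreated and 0.79 and 0.80 TPM with auxin at 8 h. At 24 h it held 0.75 and 0.52 against 2.06 and 2.03 TPM. With auxin in the CNOT4-AID line 0 of these 5 genes changed at either time. TXNIP was 0.53 ± 0.07 higher in each untreated tagged line than in parental cells (limma, adjusted p = 5.16e-05 in CNOT1-AID and 5.98e-05 in CNOT4-AID). After triptolide the CNOT1-AID slope was less steep than the parental one for ARRDC4 (0.31 ± 0.04) and MYCL (0.23 ± 0.04, edgeR, adjusted p = 4.13e-08 and 3.48e-05). The slope differences of TXNIP, MLXIP and MLXIPL were 0.20, 0.04 and -0.03 and not called. How far slopes bear on the steady-state rises was not tested.

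Cofactors and regulators went both ways. The corepressor list was called in shares near those of all genes. Among 10 corepressor genes of the antagonists 4 were higher and 3 lower at 8 h and 5 and 4 at 24 h, with SIN3A, the scaffold that MXD proteins bind, up 2.78- and 3.20-fold. Of 11 genes of the MGA complex 8 were higher and 1 lower at 8 h and 7 and 2 at 24 h. E2F6 rose 2.07- and 2.27-fold, and TFDP1 fell by 0.93 and 1.71 on the log2 scale. Of 11 MYC cofactors 5 were higher and 2 lower at 8 h and 6 and 1 at 24 h. Of 14 genes that act on MYC protein stability 8 were higher and 4 lower at 8 h and 9 and 4 at 24 h. FBXW7, the ubiquitin ligase adaptor that targets MYC, rose 2.39- and 2.82-fold, and USP36, which removes ubiquitin from MYC, 2.96- and 2.20-fold. Of 9 tested proteins known to bind MYC mRNA 1 was higher and 6 lower at 8 h and 3 and 5 at 24 h. ZFP36L1, which promotes decay of AU-rich mRNAs, rose 2.51- and 2.44-fold, and KHSRP fell by 0.67 and 1.05 on the log2 scale.

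By the Pearson correlation of 12 steady-state group means, over 8856 protein-coding genes with a mean of at least 5 TPM, the genes most like MYC were DUSP2 (r = 0.992), ZNF668 (0.990) and ZNF749 (0.990). ERAL1 was closest to MXD1 (0.993), HDHD3 to MXI1 (0.998), TNFRSF1A to MXD4 (0.982), TRIM8 to MNT (0.989), MED13 to MGA (0.987) and ZNF142 to MLX (0.986). MAX and MXD3 had lower best matches, ZNF598 (0.941) and PIGU (0.945). Among the members themselves MLX was closest to MYC (0.964), and MXD3 correlated negatively with the other 8, from -0.76 with MXD1 to -0.04 with MAX. These values describe 12 points that share the 2 CNOT1-AID auxin groups.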

How the data were processed

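RNA was measured in 48 libraries of DLD-1 lines, grouped by line, treatment and time from the labels. The 9 members and all gene lists were chosen with earlier results of these data known. Steady-state values are TPM, deposited by the authors to 2 decimals, and sum to the same total in each library, so the depth is unknown. Triptolide values are raw counts per gene, deposited by the authors. Alignment and counting tools in the submitters' processing notes are featureCounts, SAMtools, STAR 2.5.1b and RSEM, with DESeq2 and the build hg38 listed beside them and no roles given. Per the labels' protocols the kit was stranded and removed ribosomal RNA, and ERCC RNA was added. All 58721 gene identifiers matched GENCODE 29, and 0 columns were left over.

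From these, TPM were scaled with TMM factors and fitted as log2 of TPM plus 0.5 with limma 3.58.1 (trend, robust), for 14921 genes with at least 1 TPM in 2 libraries, 12 group means and 12 residual degrees of freedom. For the counts, edgeR 4.0.16 in its robust quasi-likelihood form was run on 16806 genes, with library sizes from 56 ERCC sequences of at least 10 mean counts. The slope model gave each line its own intercept and slope per hour, and the group model gave 3 h against 0 h. Lines at 0 h were compared with TMM scaling. There were 24 comparisons. P-values were adjusted by Benjamini-Hochberg over all genes, with calls at 0.05, and both fits were tested on simulated data. Alternatives were other scalings, pseudocounts and filters, DESeq2 1.42.0 for counts, a replicate block, only the groups compared, dropped time points and each library left out in turn. All 9 members were named, and from each list at most 4 genes a comparison, those with the largest change among called genes with groups that do not overlap averaging 5 TPM or more (5 CPM in the triptolide set); the 3 MLX targets and 4 further network genes could all be named. Promoter sequences are from RefSeq (GRCh38.p14), 3′ UTR sites from GENCODE 29. Nascent RNA (TT-seq) was not analysed here.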

Additional observations from a re-analysis of the deposited data

Results flagged for a closer look

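Each result here is a difference between 2 groups' responses that passed its own test. The auxin response of CNOT1-AID cells exceeded that of parental cells at 8 h for MYC by 2.06, MNT by 1.27, MXI1 by 1.03, MXD1 by 0.71, MLX by 0.69, MAX by 0.61, MXD4 by 0.44 and MGA by 0.41 (log2). At 24 h it exceeded it for MXD4 by 2.59, MXD1 by 1.86, MXI1 by 1.44, MYC by 1.43, MNT by 0.83, MLX by 0.72 and MGA by 0.71, and was smaller for MXD3 (-1.32). The 8 h calls of MXD4 and MGA did not hold under every alternative.

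Against CNOT4-AID cells at 24 h the CNOT1-AID response was larger for MXD4 by 3.21, MXD1 by 1.87, MXI1 by 1.59, MYC by 1.56, MNT by 0.90, MLX by 0.68 and MGA by 0.47, and smaller for MXD3 (-1.34). The comparisons with parental and CNOT4-AID cells at 24 h share the CNOT1-AID libraries of that time.

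Within CNOT1-AID cells the response at 24 h was larger than at 8 h for MXD4 by 1.69, MXD1 by 1.00 and MXI1 by 0.46, and smaller for MXD3 (-1.02), MYC (-0.66) and MAX (-0.38). After triptolide the slope in CNOT1-AID cells was less steep than in parental cells by 0.53 for MYC, 0.21 for MXD1, 0.10 for MAX and 0.095 for MLX (log2 units per hour), and the change from 0 h to 3 h differed by 4.80 for MYC and 1.69 for MXD1. Under some alternatives the differences between times of MXI1 and MAX were not called. The same held for the slopes of MXD1, MAX and MLX and for the 3 h difference of MXD1.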

How the results depend on the processing

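Across all alternatives 2950 values of single members kept their direction and side of the threshold, 114 lost a call, 46 gained one and 4 reversed. Counts of members called that moved by over 1.5 times were as follows. For CNOT4-AID auxin at 24 h the count was 0 with unscaled TPM, with ERCC scaling and with only the groups compared (1 as reported). Untreated CNOT1-AID against parental gave 0 with unscaled TPM, 0 with ERCC scaling, 2 with no filter and 2 with only the groups compared (4 as reported), and untreated CNOT4-AID gave 5 (all lower), 0 and 0 with unscaled TPM, ERCC scaling and only the groups compared (1 as reported). The slope difference between CNOT1-AID and parental cells was called for 2 members without 12 h and 1 without 0 h (4 as reported), and that of CNOT4-AID for 2 with DESeq2 (0 as reported). At 3 h of triptolide parental cells gave 4 with TMM scaling or library totals (2 as reported) and CNOT4-AID cells 4 with TMM scaling (7 as reported). CNOT4-AID against parental at 0 h gave 1 with ERCC scaling (3 as reported). The cause was not tested.

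Leaving out 1 library at a time gave these ranges of members called. CNOT4-AID auxin gave 0 to 1 at 8 h and 0 to 1 at 24 h, and the difference between CNOT1-AID and parental responses 6 to 8 at 8 h. The difference between times in CNOT1-AID cells gave 4 to 6. Untreated CNOT1-AID gave 1 to 3 and untreated CNOT4-AID 0 to 1. Slope differences gave 2 to 6 for CNOT1-AID and 0 to 8 for CNOT4-AID. Changes at 3 h gave 2 to 4 in parental cells, 2 to 7 in CNOT4-AID cells and 1 to 2 for the difference between CNOT1-AID and parental. Comparisons at 0 h gave 2 to 6 for CNOT1-AID and 1 to 6 for CNOT4-AID. The single CNOT4-AID call at 8 h, MYC (0.27), appeared without auxin replicate 1. Parental 3 h had 4 calls without parental 0 h replicate 2. CNOT4-AID slopes had 2 calls without parental 0 h replicate 1 and 8 without CNOT4-AID 12 h replicate 1. CNOT4-AID at 0 h had 1 call without CNOT4-AID 0 h replicate 2. A group left with 1 library was assumed to vary like the others.

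The reversed values were MYC (-0.23, adjusted p = 0.0158) and MXD1 (-0.00078) in untreated CNOT4-AID cells with unscaled TPM, and MXD3 (0.80, adjusted p = 0.00356) and MNT (0.41, adjusted p = 0.00395) in CNOT4-AID cells at 0 h without parental replicate 1. Without parental replicate 2 these 2 values were -0.74 and -0.51. The labels do not say that replicate numbers pair libraries, and deviations of same-numbered libraries correlated at -0.21 to 0.10 over 6 pairs of steady-state groups and -0.04 to 0.07 over 9 pairs of triptolide groups. A fit with the replicate number as a block gave 8 calls for CNOT1-AID auxin at 8 h and 8 at 24 h, took untreated CNOT1-AID from 4 to 3 and CNOT4-AID at 0 h from 3 to 2, and changed no other count. Depth behind TPM is unknown, and 2 libraries a group limit every comparison.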
